A study of Mus musculus with 26 samples.

Results

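The transcripts of 10 immediate early genes, Fos, Fosb, Jun, Junb, Atf3, Egr1, Dusp1, Zfp36, Ier2 and Ier3, were followed in every sample as a measure of handling and acute activation. The genes were taken by symbol from the monocyte and small peritoneal macrophage (SPM) count tables and by the same gene identifier from the lung table. They are 10 of the 50104 gene identifiers present in all 3 tables.

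Immediate early genes are switched on within minutes of a stimulus by transcription factors that are already present in the cell, so that no new protein has to be made first. Growth factors, cytokines, microbial products, mechanical stress and enzymatic dissociation of a tissue all induce them through MAP kinases, which act on serum response factor with its partner factors and on CREB and ATF proteins. In monocytes and macrophages they open the primary response to activation, and several of their products, including DUSP1 and tristetraprolin, then shut the response down.

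The RNA came from cells that were FACS sorted out of naïve female mice, either wild type (WT) or lacking the atypical chemokine receptor 2 (ACKR2-/-), a receptor that takes up inflammatory chemokines without signalling as a conventional receptor. Bone marrow monocytes and SPMs were represented by 4 samples of each genotype and MHCII negative lung macrophages by 5, giving 26 samples in 6 groups. The methods state that each monocyte or SPM sample pooled sorted cells from several mice, and they give no such number for the lung. ACKR2 is missing from every cell of the ACKR2-/- animals, which were bred as their own colony beside purchased C57BL/6J controls, so a difference between colonies and the effect of the deletion cannot be told apart. No sample was stimulated, and no group differs from another by a treatment. The 3 cell types were also obtained by different routes: bone marrow was flushed out, the peritoneal cavity was washed, and only the lung was chopped and digested with enzymes before sorting. Cell type, isolation route and count table change together, and their parts in a difference between cell types cannot be told apart.

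The samples held 12781144 to 35400034 counts on genes. Levels are given as CPM, the reads of a gene scaled to a common library size with TMM factors (0.4898 to 0.7341 in SPMs, 1.137 to 1.538 in the other cells), on which 3 reads made between 0.0809 and 0.466 CPM. The leading 10 genes of each sample held 31.1% to 40.4% of its counts in SPMs and 8.63% to 18.4% elsewhere. The monocyte marker Ly6c2 was at 3965.1 to 5091.5 CPM in WT monocytes, and the macrophage marker C1qa at 1325.7 to 3758.1 in SPMs and 46.8 to 2048.8 in lung macrophages. Summed over 10 macrophage markers, WT lung samples held less (13863.1 to 24629.9 CPM) than WT monocytes (38590 to 47964.9) or WT SPMs (130347 to 244517.2). The sum of 6 interstitial macrophage markers was 291.8 to 1110.9 CPM in WT lung samples and 683.7 to 1375.1 in WT SPMs. Reads on Ackr2 were absent from all ACKR2-/- monocyte and SPM samples, from 3 of 4 WT monocyte samples and from the library labelled WT lung replicate 5, while the other WT lung samples held 5.78 to 18.3 CPM and the ACKR2-/- lung samples 0.234 to 1.35 CPM. WT lung replicate 3 held 72034 CPM of the 4 MHC class II genes against 3467.4 to 7727.6 CPM in the other WT lung samples. Epithelial genes such as Sftpc, a surfactant gene of alveolar type II cells, summed to 210.5 to 15580.1 CPM over a list of 7 in lung samples and to at most 9.82 CPM in the other cells. Comparisons of the members and gene lists with WT lung macrophages were repeated without the libraries labelled WT replicates 3 and 5. Some of the resulting counts, medians and estimates are given beside the results, while most differences of single genes are given with all libraries only. Marker comparisons were not repeated.

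The short promoter windows of 6 members are shown first because the letters bound by the factors that induce immediate early genes can be read in them. The set of RefSeq promoters used here held an entry on GRCm38.p6 for 8 of the 10 members. It had none for Egr1 and Ier2, which were not searched. The 250 bases before each start were searched on both strands for the serum response factor letters known as the CArG box, for TGACGTCA, for its shorter core TGACG, for TGACTCA, the element of the AP-1 dimer, for TATAAA and for GCGTGGGCG, the element of EGR1. A TGACGTCA holds TGACG on each strand and counts for both. Capitals mark the match in each window, and every window reads 5′ to 3′ on the strand of the gene, so that a capital CGTCA is TGACG on the other strand.
Fos, chr12:85473741-85473848, plus strand: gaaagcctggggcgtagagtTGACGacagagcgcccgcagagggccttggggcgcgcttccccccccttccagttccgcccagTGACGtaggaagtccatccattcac
Fosb, chr7:19310081-19310125, minus strand: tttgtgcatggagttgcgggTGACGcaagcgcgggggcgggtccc
Junb, chr8:84978830-84978874, minus strand: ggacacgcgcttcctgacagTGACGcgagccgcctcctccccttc
Dusp1, chr17:26508588-26508683, minus strand: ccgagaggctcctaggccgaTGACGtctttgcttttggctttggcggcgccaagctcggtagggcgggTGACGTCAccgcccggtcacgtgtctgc
Atf3, chr1:191183334-191183360, minus strand: ggaagctattaatagcattaCGTCAgc
Zfp36, chr7:28379257-28379306, minus strand: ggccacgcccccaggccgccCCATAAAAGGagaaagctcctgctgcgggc

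TGACG stood in the promoters of 5 of the 8 members, Fos, Fosb, Junb, Dusp1 and Atf3, against 17.8% of 32851 promoters of the same length. In Fos it lay 129 to 125 and 66 to 62 bases before the start, the latter beside a TATAAA at 33 to 28 bases. In Dusp1 the full TGACGTCA lay 143 to 136 bases before the start, an octamer found in 1.55% of promoters. The CArG box was present in Zfp36, 58 to 49 bases before the start, and in 1.47% of promoters. TATAAA was found in 12.4% of promoters, and TGACTCA (4.46%) and GCGTGGGCG (0.536%) in no member. Jun and Ier3 held none of the 6 motifs in their windows. The windows of Atf3 and Zfp36 lie inside the gene spans given by the count tables, which start further upstream. A match is a description of the letters and not a site that was measured.

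Among the members that encode subunits of AP-1, the dimeric factor of FOS, JUN and ATF proteins, Fos (ENSMUSG00000021250, chromosome 12, 85473890 to 85477273, plus strand) was abundant in monocytes and lung macrophages and low in SPMs. Its level was 836.7, 377.7, 1785.6 and 786.5 CPM in WT monocytes and 764.6, 159.8, 569.1 and 591.5 CPM in ACKR2-/- monocytes. SPMs held 56.9, 35.1, 37.6 and 38.4 CPM in WT and 52.4, 50.3, 37.0 and 48.1 CPM in ACKR2-/- samples. Every SPM sample was below every monocyte sample. Lung macrophages held 2646.1, 2111.6, 3310.9, 2696.7 and 1952.5 CPM in WT and 2092.7, 2032.3, 2009.2, 1545.8 and 946.9 CPM in ACKR2-/- samples. The lung samples stood above the monocytes except that WT monocyte replicate 3 passed ACKR2-/- lung replicates 4 and 5.

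Jun (ENSMUSG00000052684, chromosome 4, 95049034 to 95052222, minus strand), the most widely used partner of FOS, followed the same order of cell types. It was at 78.3, 59.8, 168.9 and 56.4 CPM in WT monocytes, at 196.4, 39.2, 45.8 and 75.9 CPM in ACKR2-/- monocytes and at 11.7 to 33.8 CPM in the 8 SPM samples. In lung macrophages it reached 738.5, 716.4, 607.1, 964.9 and 668.7 CPM in WT and 527.5, 469.1, 575.4, 402.0 and 357.1 CPM in ACKR2-/- samples. The lowest lung sample was above the highest monocyte sample, and the ranges of the lung genotypes did not meet. Of the exonic bases of Jun, 232 of 3189 are shared with the opposite-strand gene Junos, and as the kit does not mark strand, reads of the pair cannot be told apart.

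Junb (ENSMUSG00000052837, chromosome 8, 84974484 to 84978718, minus strand), a JUN protein that also restrains JUN, differed little between monocytes and SPMs. WT monocytes held 145.2, 59.7, 208.8 and 101.6 CPM and ACKR2-/- monocytes 158.8, 54.6, 131.9 and 111.4 CPM. WT SPMs held 99.7, 139.4, 71.2 and 158.3 CPM and ACKR2-/- SPMs 207.1, 184.3, 152.5 and 184.6 CPM. The monocyte and SPM ranges overlapped in both genotypes, with 3 of 4 ACKR2-/- SPM samples above all WT SPM samples. Lung macrophages held 1551.1, 1489.5, 1684.3, 1387.7 and 1233.5 CPM in WT and 1296.9, 966.8, 1109.7, 995.5 and 976.5 CPM in ACKR2-/- samples, and only ACKR2-/- replicate 1 rose above the lowest WT sample. Junb shares 173 of 2301 exonic bases with the opposite-strand gene Prdx2.

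Fosb (ENSMUSG00000003545, chromosome 7, 19302696 to 19310051, minus strand), a close relative of Fos, was nearly silent outside the lung. It had 2 to 9 reads per SPM sample (0.0948 to 0.622 CPM) and 0.738 to 15.2 CPM in monocytes, against 60.3, 59.4, 70.8, 81.0 and 48.7 CPM in WT and 56.5, 48.5, 91.3, 19.2 and 85.5 CPM in ACKR2-/- lung macrophages. Atf3 (ENSMUSG00000026628, chromosome 1, 191170296 to 191218039, minus strand), a stress-induced ATF protein that represses inflammatory genes, was at 10.1 to 63.1 CPM in monocytes, 48.6 to 111.6 CPM in SPMs and 604.2 to 2016.7 CPM in lung macrophages. Every lung sample was above every monocyte and SPM sample for both genes.

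Egr1 (ENSMUSG00000038418, chromosome 18), a zinc finger factor that is absent from most resting cells, had the widest range. It held 1.80, 0.392, 2.56 and 0.753 CPM in WT and 12.1, 0.853, 0.779 and 1.62 CPM in ACKR2-/- monocytes, down to 8 reads in a sample. SPMs held 40.1, 21.3, 12.0 and 26.2 CPM in WT and 29.8, 21.3, 21.5 and 30.7 CPM in ACKR2-/- samples. Thus Egr1 ran opposite to Fos between these cells, although the highest ACKR2-/- monocyte sample came just above the lowest WT SPM sample. Lung macrophages held 563.2, 596.3, 713.6, 463.7 and 177.8 CPM in WT and 581.1, 347.4, 399.1, 107.3 and 122.4 CPM in ACKR2-/- samples. The 3 lowest lung samples were ACKR2-/- replicates 4 and 5 and the library labelled WT replicate 5. They were also the 3 with the lowest epithelial sums (210.5, 4420.5 and 335.3 CPM). Only Egr1 and Ier3 were ranked beside these sums, and not every member followed them. Zfp36 was highest of the ACKR2-/- lung samples in replicate 4 (2802.3 CPM). The part of other cells in Egr1 was not tested.

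Dusp1 (ENSMUSG00000024190, chromosome 17, 26505590 to 26508519, minus strand) encodes the phosphatase that switches off p38 and JNK MAP kinases. It was at 130.6, 62.2, 411.6 and 117.0 CPM in WT and 340.0, 23.9, 91.8 and 153.1 CPM in ACKR2-/- monocytes. WT SPMs held 27.1, 55.2, 54.6 and 61.9 CPM and ACKR2-/- SPMs 89.1, 62.4, 75.7 and 79.0 CPM. Every ACKR2-/- SPM sample was above every WT SPM sample, by a gap of less than 1 CPM at its narrowest. Lung macrophages held 3590.2, 2799.9, 2797.1, 3522.8 and 2839.0 CPM in WT and 2903.8, 2409.5, 2415.7, 2443.0 and 1488.1 CPM in ACKR2-/- samples, of which only replicate 1 reached the WT range.

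Zfp36 (ENSMUSG00000044786, chromosome 7, 28376784 to 28380253, minus strand) encodes tristetraprolin, which destroys mRNAs of Tnf and other cytokines. Its level was 400.4, 197.9, 659.8 and 317.5 CPM in WT and 281.5, 88.0, 329.2 and 256.7 CPM in ACKR2-/- monocytes, and 107.7, 119.3, 81.0 and 124.0 CPM in WT and 151.3, 147.0, 135.5 and 132.9 CPM in ACKR2-/- SPMs. WT lung macrophages kept within 2918.8 to 3074.5 CPM, a spread of 1.05-fold, while the ACKR2-/- samples held 2444.8, 1808.8, 2369.6, 2802.3 and 1708.1 CPM, all of them lower. Zfp36 shares 125 of 3470 exonic bases with the opposite-strand Gm44710 and Dusp1 shares 11 of 3311 with Ergic1.

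Ier2 (ENSMUSG00000053560, chromosome 8, 84661331 to 84662852, minus strand), a small nuclear regulator, was the most even member, at 196.3 to 342.5 CPM in monocytes, 77.4 to 191.5 CPM in SPMs and 607.0 to 1041.9 CPM in lung macrophages. Ier3 (ENSMUSG00000003541, chromosome 17, 35821684 to 35822923, plus strand), which protects cells from death under NF-kB signals, was low in monocytes (5.03 to 13.5 CPM) and SPMs (8.71 to 35.9 CPM). Lung macrophages held 585.2, 516.6, 220.9, 264.6 and 142.4 CPM of Ier3 in WT and 556.3, 354.1, 314.2, 111.0 and 291.2 CPM in ACKR2-/- samples. As with Egr1, its lowest values fell on ACKR2-/- replicate 4 and the library labelled WT replicate 5.

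**Figure D1:**
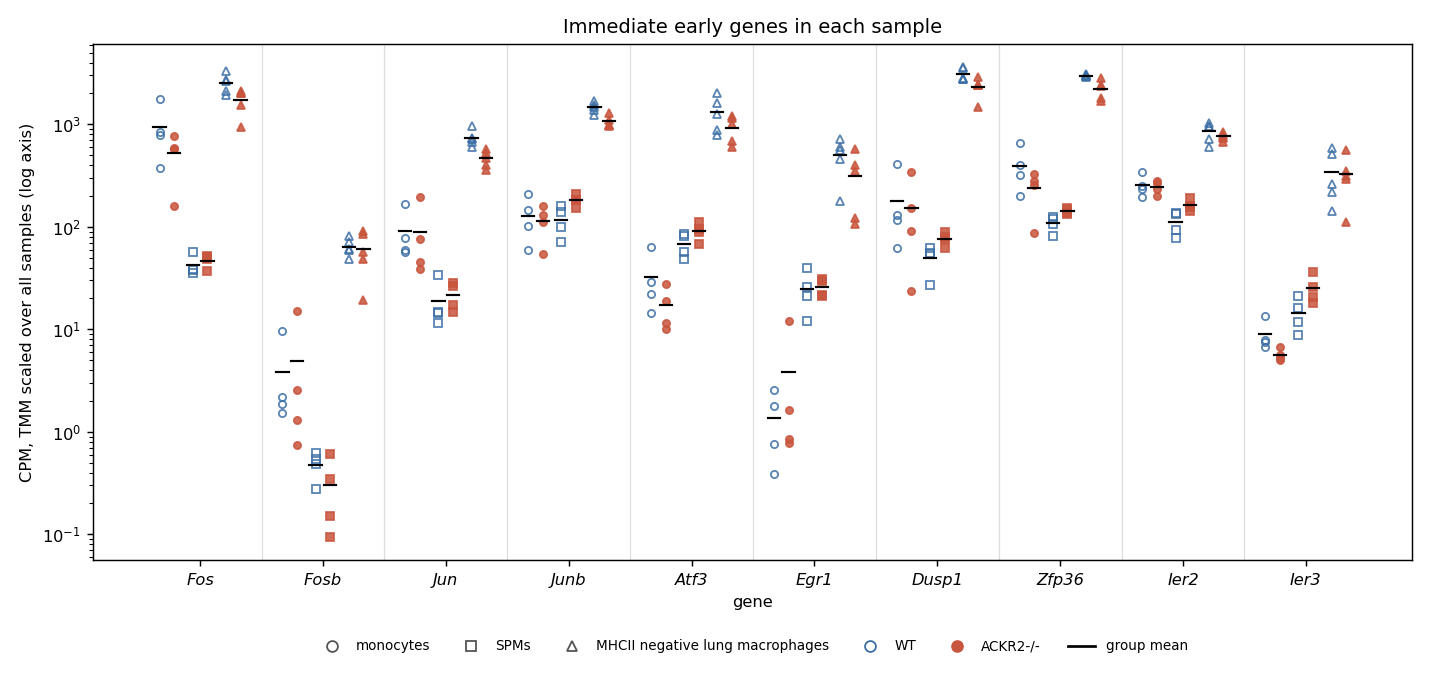
Level of each of the 10 immediate early genes in every sample, in TMM-scaled CPM on a log axis, by cell type and genotype, with 1 point per sample and the group mean as a bar. Lung samples lie above all monocyte and SPM samples for 9 or 10 genes each, and Fos shows the SPM samples lowest, at 35.1 to 56.9 CPM.

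All 10 genes were higher in MHCII negative lung macrophages than in monocytes or in SPMs, in both genotypes. Between lung macrophages and monocytes of WT mice the smallest differences were those of Fos (2.69-fold, log2 1.43, SE 0.38) and Ier2 (3.34-fold), and the largest that of Egr1 (362.6-fold, log2 8.50, SE 0.90). Zfp36 was 7.6-fold, Jun 8.13-fold, Junb 11.4-fold, Fosb 16.7-fold, Dusp1 17.2-fold, Ier3 38.7-fold and Atf3 40.6-fold higher. Calls required an adjusted p under 0.05 (edgeR's quasi-likelihood test, Benjamini-Hochberg adjustment over 17792 genes) and an absolute log2 fold change over 0.5. By that rule 10 of 10 members were higher, where 39.5% of all genes tested were, and the largest adjusted p was that of Fos (0.00185). The median log2 difference was 3.79 over the members and 0.34 over all genes. All 10 members also had WT groups that did not overlap, as did 30.3% of genes in this direction.

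Against WT SPMs the lung macrophages of WT mice again held more of all 10 genes, where 39.1% of genes were called higher, with a median of 4.68 on the log2 scale against 0.41 over all genes. The steepest differences were those of Fosb (134.5-fold), Dusp1 (62.6-fold), Fos (60.5-fold) and Jun (39.3-fold), and the smallest that of Ier2 (7.72-fold). No WT lung sample overlapped a WT SPM sample for any member, a feature of 26.7% of genes in this direction. In ACKR2-/- mice 10 of 10 members were called higher in lung macrophages than in monocytes (background 37.6%, median 3.41 against 0.25 over all genes) and than in SPMs (background 38.9%, median 3.83 against 0.4). Without the libraries labelled WT lung replicates 3 and 5, both WT counts were again 10, with medians of 3.82 and 4.89. With library sizes alone the median of all genes moved to 1.62 in WT and 1.58 in ACKR2-/- mice for lung macrophages against SPMs, and those of the members to 5.95 and 5.02.

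Heat shock genes and markers of other cells also differed between these cell types. The 12 heat shock genes are a list of transcripts raised by dissociation of tissue. Their summed level was 7280 to 20918.9 CPM in the lung samples, 2587.7 to 3094.8 CPM in monocytes and 2849.5 to 4164.9 CPM in SPMs. In WT mice Hspa1a and Hspa1b had means of 3536.1 and 5573.2 CPM in the lung. These were 3.16 and 5.58 CPM in monocytes and 6.26 and 26.9 CPM in SPMs. Hsp90ab1 was at 1055.6, 571.2 and 1252.9 CPM in the same order of cells. Endothelial genes summed to 75 to 529.3 CPM in the lung and at most 12.3 CPM elsewhere. The part of heat shock genes and of other cells in the result was not tested. Of the 10 lung samples, 8 were above every monocyte and SPM sample for 10 members, the library labelled WT replicate 5 with an epithelial sum of 335.3 CPM among them, and ACKR2-/- replicates 4 (210.5 CPM) and 5 (4420.5 CPM) for 9, all but Fos. In sorted bulk RNA a smaller number of responding cells and less RNA per cell cannot be told apart.

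SPMs and monocytes differed in both directions. In WT mice 6 members were called lower in SPMs, Fos (log2 -4.49, SE 0.44), Fosb (-3.01), Jun (-2.27), Zfp36 (-1.87), Dusp1 (-1.86) and Ier2 (-1.21), where 20.1% of all genes were. Egr1 (log2 4.17, SE 0.77, 18-fold) and Atf3 (1.08, SE 0.39) were called higher, where 21.8% of genes were, although the Atf3 values overlapped. Groups that did not overlap were those of the same 6 lower members (background 21.6%) and of Egr1 (19.4%). Junb (-0.14, 95% interval -0.76 to 0.49) and Ier3 (0.70, -0.15 to 1.55) were not called. In ACKR2-/- mice 4 members were lower in SPMs (Fos -3.47, Fosb -4.13, Jun -2.03 and Ier2 -0.59; background 19.5%) and 3 higher (Egr1 2.74, Atf3 2.41 and Ier3 2.15; background 20.8%), while Junb (0.67), Dusp1 (-0.99) and Zfp36 (-0.75) missed the threshold. The 4 lower and 3 higher members were also those whose ACKR2-/- groups did not overlap, where 24.3% and 23.5% of genes did not. Markers of other cells differed as well. In WT mice 8 neutrophil genes summed to 24144.6 to 51689.8 CPM in monocytes and 8.71 to 149.8 CPM in SPMs. The sums of 8 T cell genes were 2.86 to 3.72 CPM in monocytes and 408.4 to 869.3 CPM in SPMs. Those of 5 mast cell or basophil genes were 24.8 to 42.8 and 220.6 to 2737.4 CPM. What part these transcripts had in the differences was not tested.

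The split between higher and lower depended on scaling. With library sizes alone, without TMM factors, the median of all genes moved from 0 to -0.96 in the WT comparison and to -1.22 in the ACKR2-/- comparison. The counts then became 1 higher and 7 lower in WT mice, with Atf3 at -0.14 and Ier3 at -0.52, and 1 higher and 6 lower in ACKR2-/- mice, with Junb at -0.62. DESeq2 and its size factors in edgeR gave 4 higher and 3 lower in ACKR2-/- mice. Fos, Fosb and Jun were called lower in SPMs with each of these scalings, as Egr1 was called higher except in ACKR2-/- mice with library sizes alone (1.37, adjusted p = 0.107 in edgeR's quasi-likelihood test). Leaving out WT monocyte replicate 3 removed the calls of Fosb (-1.97, adjusted p = 0.0637 in edgeR's quasi-likelihood test, 0.000398 or more over all alternatives) and Dusp1 (-1.06, 0.0808, 4.46e-05 or more). The call of Atf3 was lost in 5 of 8 leave-outs.

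**Figure D2:**
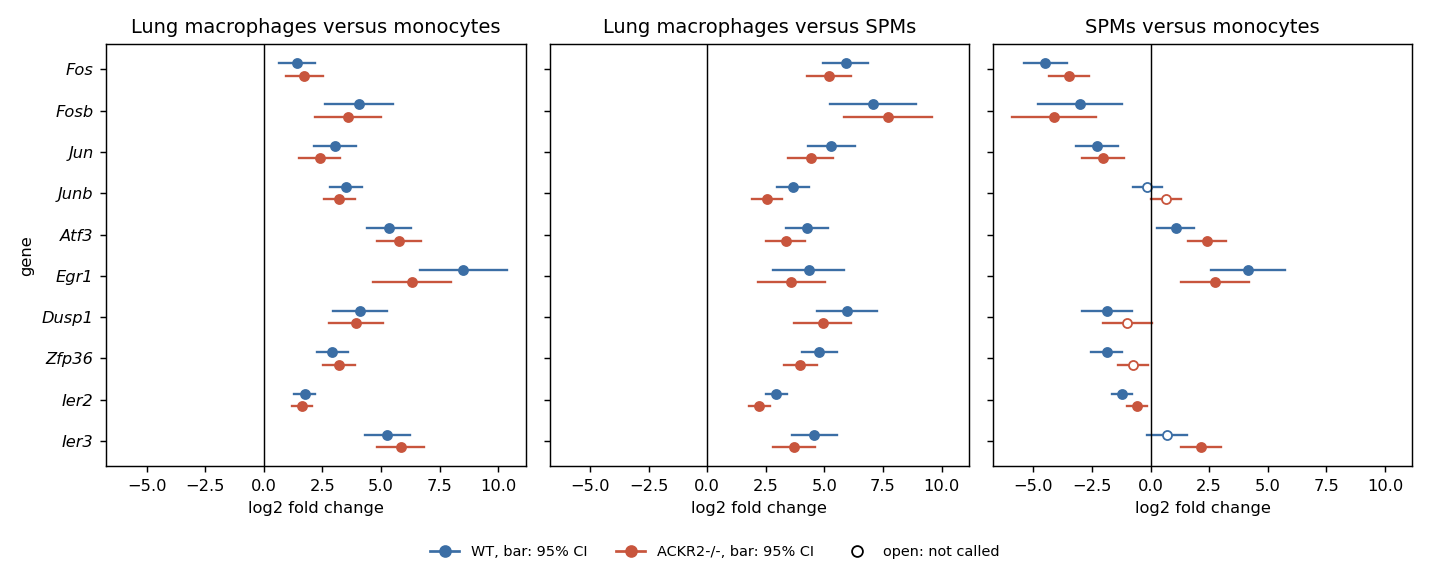
Log2 difference of each immediate early gene between cell types within each genotype, with its 95% interval from edgeR's quasi-likelihood test and open points for genes that were not called. Both contrasts with lung macrophages lie to the right of 0 for 10 of 10 genes, from 1.43 for Fos to 8.50 for Egr1, both against monocytes in WT mice, while the SPM and monocyte contrast has Egr1 at 4.17 and Fos at -4.49 in WT mice.

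Per kilobase of gene length, which makes levels comparable between genes, the order of the members changed with the cell type. In WT monocytes Fos led (402.5 ± 253.4 CPM per kb, SD, n = 4), followed by Ier2 (168.2 ± 40.7) and Zfp36 (113.5 ± 56.4), with Fosb (0.609 ± 0.629) and Egr1 (0.307 ± 0.221) last. Neighbours in that order overlapped in all places but between Ier3 and Fosb. In WT SPMs Ier2 (72.7 ± 19.6) and Junb (50.9 ± 17.0) led and Fos (17.9 ± 4.26) was sixth, with gaps only below Zfp36 and above Fosb. In WT lung macrophages the feedback phosphatase gene Dusp1 led (1153.1 ± 151.6 CPM per kb, SD, n = 5), followed by Fos (1081.4 ± 228.8), whose values overlapped those of Dusp1, and by Zfp36 (862.6 ± 16.9), with Egr1 (112.2 ± 45.2) and Fosb (10.3 ± 1.97) last. With the libraries labelled WT replicates 3 and 5 left out, these 5 genes kept their places, Dusp1 being at 1225.2 ± 162.4 and Fos at 1056.5 ± 137.8 CPM per kb (SD, n = 3). Fosb ended last or next to last in all 6 groups.

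Replicates of monocytes differed widely in these genes. The SD of log2 CPM within groups was above the median of all genes (0.26) for 10 of 10 members in monocytes and above the 90th percentile for 8, with a median of 0.86 and the largest values for Fosb (1.56), Egr1 (1.51) and Dusp1 (1.41). Ier2 (0.29) and Ier3 (0.35) were the 2 members below that percentile. In SPMs 3 of 9 members and in lung macrophages 3 of 10 were above the median of all genes in those cells (0.45 and 0.55), and none was above the 90th percentile. The levels of the monocyte members ran from percentile 17.6 of all genes (Egr1) to percentile 99 (Fos).

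The high and low values belonged to the same libraries. WT monocyte replicate 3 was the highest of its group for 10 of 10 members and replicate 2 the lowest for 9. ACKR2-/- monocyte replicate 1 was the highest for 8, all but Atf3 and Zfp36, and replicate 2 the lowest for 8. Averaged over the members, these libraries lay 1.06, -0.832, 1 and -0.98 from their group mean on the log2 scale, a range of 3.33- to 4.78-fold for Fos and Zfp36 and of 14.2-fold for Dusp1 in ACKR2-/- mice. The summed level of the 12 heat shock genes was lowest of its group in WT replicate 3 (2638.7 CPM). In ACKR2-/- replicate 1 it was the lowest of all monocytes (2587.7 CPM). That sum rests mostly on abundant genes, with means in WT monocytes of 1040.9 CPM for Hspa8, 3.16 for Hspa1a and 5.58 for Hspa1b. Changes in Hspa1a and Hspa1b cannot be read from it. ACKR2-/- replicate 1 also had the lowest sums of 10 macrophage genes (18290.6 against 29945.9 to 50684.8 CPM) and 8 monocyte genes (3458.6 against 5379.3 to 7203.9 CPM) in its group, and WT replicate 2 the highest neutrophil sum (51689.8 CPM). The part of these other transcripts in the spread was not tested.

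**Figure D3:**
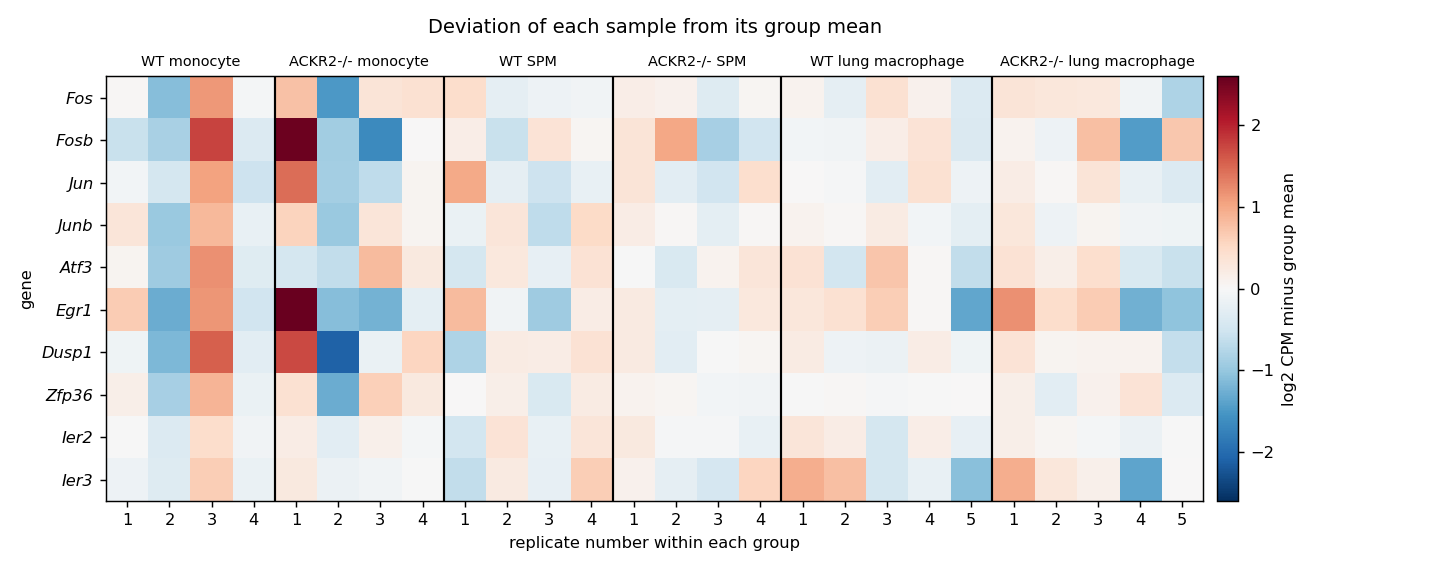
Deviation of each immediate early gene from its group mean in log2 CPM, 1 column per sample and 1 row per gene, with red above and blue below the mean. WT monocyte replicate 3 and ACKR2-/- monocyte replicate 1 are high, and replicate 2 of each genotype is low, through nearly all genes, with means of 1.06, 1, -0.832 and -0.98.

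**Figure D4:**
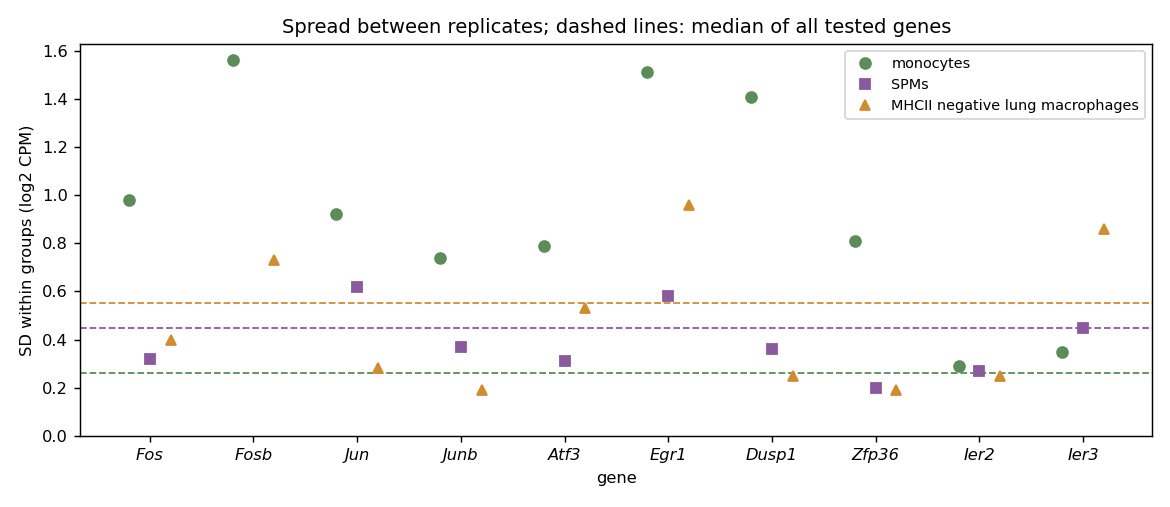
Within-group SD of log2 CPM of each immediate early gene in monocytes, SPMs and lung macrophages, with the median of all tested genes of that cell type as a line. Monocyte values run from 0.29 to 1.56, all above the line at 0.26, while those in SPMs and lung macrophages lie on both sides of 0.45 and 0.55.

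The genes whose deviations over the 26 samples were most like the mean deviation of the 10 members, out of 17782 genes, were Ppp1r15a (Pearson's r = 0.91), which restores translation after stress, the neutrophil chemokine gene Cxcl2 (0.89), the linker histone gene Hist1h1c (0.83), Ear6 (0.81), of the eosinophil-associated ribonuclease family, and the polo-like kinase gene Plk2 (0.78). Within the 8 monocyte samples Plk2 reached 0.99, Hist1h1c 0.98, Cxcl2 0.97 and Ppp1r15a 0.96. In SPMs the values were 0.4, 0.02, 0.69 and -0.35 and in lung macrophages 0.41, 0.81, 0.72 and 0.92. These are descriptions over samples that share library depth and scaling, and the wide monocyte deviations weigh most in them.

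The comparison of ACKR2-/- with WT mice within each cell type asked whether the state of acute activation differed between genotypes. No member was called in any cell type by edgeR's quasi-likelihood test, where 1.27% of 13246 genes in monocytes, 0.0462% of 12997 in SPMs and 0% of 16824 in lung macrophages were. DESeq2 called no member either, and with either tool 1, 4 and 5 members were at an unadjusted p under 0.05. DESeq2 called 0.119% of genes in lung macrophages. Fosb fell below the filter on low counts in SPMs and was not tested there. Nothing in the labels says that replicates came from separate cultures or days, so p-values measure only the spread between these samples.

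In lung macrophages all 10 members had lower estimates in ACKR2-/- mice, where 55.2% of genes did, with a median log2 difference of -0.46 against -0.04 over all genes. Jun was at 739.1 ± 135.9 CPM in WT and 466.2 ± 89.0 in ACKR2-/- mice (SD, n = 5; log2 -0.68, SE 0.20), and Zfp36 at 2993.2 ± 58.5 and 2226.7 ± 459.1 (-0.44, SE 0.17). For these 2 genes the 5 ACKR2-/- samples were all below the WT range under both sets of scaling factors, joint and fitted within the cell type, as for 0.143% of genes. Fos (-0.58), Junb (-0.47) and Dusp1 (-0.43) made up, with Jun and Zfp36, the 5 members at an unadjusted p under 0.05, where 1.72% of genes were lower at that level. The adjusted p was 1 for all of them in edgeR's quasi-likelihood test, and 0.137 for Jun in DESeq2, the lowest over its alternatives.

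Egr1 (-0.72, 95% interval -1.78 to 0.35), Atf3 (-0.51, -1.17 to 0.16), Ier2 (-0.17, -0.56 to 0.22), Ier3 (-0.08, -1.05 to 0.88) and Fosb (-0.07, -0.89 to 0.75) were less certain. Leaving out 1 library gave 2 to 5 members at an unadjusted p under 0.05, the 2 being reached without WT replicate 1 or without ACKR2-/- replicate 5, and 8 to 10 with lower estimates. Without the libraries labelled WT replicates 3 and 5 there were 2 such members, and 10 of 10 estimates were still below 0 with a median of -0.44. Of 10 macrophage markers, 9 had lower estimates in ACKR2-/- lung samples as well (median -0.46), with sums of 13863.1 to 24629.9 CPM in WT and 13986.7 to 25141.3 CPM in ACKR2-/- samples, and all 6 interstitial macrophage markers did (median -1.49). All 6 NK cell markers had higher estimates (median 1.96), and the heat shock sums were 11789.5 to 20918.9 CPM in WT and 7280 to 15466.4 CPM in ACKR2-/- samples. Their part in the difference was not tested.

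In SPMs 8 of 9 members tested had higher estimates in ACKR2-/- mice, where 44.3% of genes did, with a median of 0.36 against -0.05 over all genes. Ier3 (log2 0.75, SE 0.30), Junb (0.58, SE 0.24), Dusp1 (0.58, SE 0.24) and Ier2 (0.50, SE 0.21) were at an unadjusted p under 0.05, where 2.93% of genes were higher at that level, and their adjusted p was 0.788 in edgeR's quasi-likelihood test. Dusp1 rests on 49.7 ± 15.4 CPM in WT and 76.5 ± 11 in ACKR2-/- samples (SD, n = 4), and Zfp36 on 108.0 ± 19.3 and 141.7 ± 8.87. For these 2 genes the groups did not overlap under either set of factors, as for 1.7% of genes. Atf3 (0.36), Zfp36 (0.33), Jun (0.12), Fos (0.08) and Egr1 (-0.04) had unadjusted p of 0.104 or more. None of the 4 remained at an unadjusted p under 0.05 without ACKR2-/- replicate 1, and 1 did without WT replicate 3 or ACKR2-/- replicate 4. The erythroid markers, 5 of 5 with higher estimates (median 2.57), and NK cell markers, 5 of 5 (median 1.33), differed in the same direction, and their part was not tested.

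In monocytes the difference was small beside the spread. Of the 10 members, 7 had lower estimates in ACKR2-/- mice (background 49.6%), with a median of -0.18 against 0 over all genes. Ier3, at 8.93 ± 3.11 CPM in WT and 5.67 ± 0.756 in ACKR2-/- monocytes (SD, n = 4), was the only member at an unadjusted p under 0.05 (log2 -0.63, SE 0.23, adjusted p = 0.203 in edgeR's quasi-likelihood test), where 8.17% of genes were lower at that level. Fos was at 946.6 ± 595.9 and 521.3 ± 256.3 CPM (-0.83, 95% interval -1.89 to 0.22), Atf3 at 32.2 ± 21.4 and 17.1 ± 8.15 CPM (-0.89, -1.82 to 0.03) and Zfp36 at 393.9 ± 195.8 and 238.8 ± 105.0 CPM (-0.70, -1.58 to 0.18). Egr1 had an estimate of 1.52 that rested on ACKR2-/- replicate 1 and was -0.34 without it, as Fosb went from 0.42 to -1.3.

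Single monocyte libraries decided the direction. Without ACKR2-/- replicate 1 all 10 estimates were below 0 (median -0.75), whereas without WT replicate 3 or ACKR2-/- replicate 2 only 4 were, with medians of 0.15 and 0.08. The number at an unadjusted p under 0.05 was 0 without WT replicate 3, without ACKR2-/- replicate 2 or with library sizes alone. It was 2 without WT replicate 4 and 4 without WT replicate 2. Without ACKR2-/- replicate 3 it was 3, of which 1 was higher. With no filter on low counts it was 5, of which 1 was higher. All 8 T cell markers were called higher in ACKR2-/- monocytes, with sums of 51.4 to 89.9 CPM against 2.86 to 3.72 CPM in WT, and their part in these estimates was not tested.

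**Figure D5:**
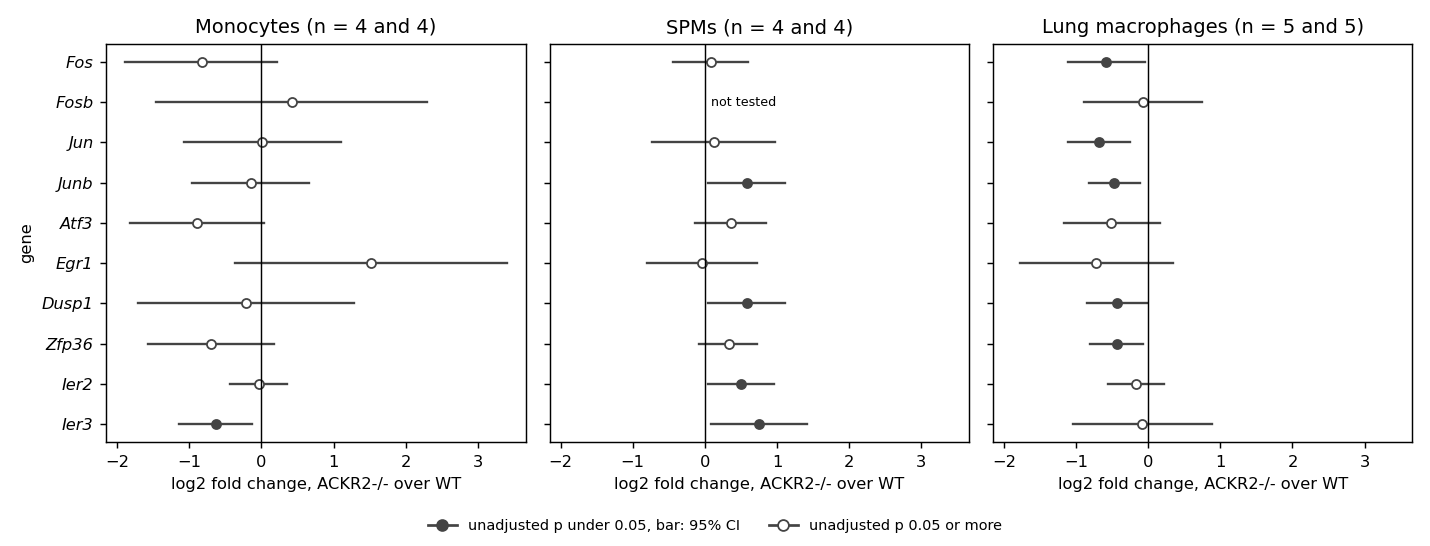
Log2 difference between ACKR2-/- and WT mice for each immediate early gene in the 3 cell types, with its 95% interval from edgeR's quasi-likelihood test and filled points for an unadjusted p under 0.05. In lung macrophages 10 of 10 estimates lie below 0, from -0.72 for Egr1 to -0.07 for Fosb, in SPMs 8 of 9 lie above 0, and no gene passed the adjusted threshold.

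Whether the genotype difference itself differed between cell types was tested in the joint fit of the 26 samples. No member passed an adjusted p of 0.05 in any of the 3 comparisons, where 0.253%, 0.152% and 0.0393% of genes did. At an unadjusted p under 0.05, 4 members had a difference that was higher in SPMs than in monocytes, Zfp36 (1.11, SE 0.44), Atf3 (1.33), Ier3 (1.45) and Ier2 (0.62), where 3.66% of genes were. There were 3 with DESeq2, 0 without WT monocyte replicate 3 and 7 without ACKR2-/- monocyte replicate 1. Junb (-1.09, SE 0.41) and Ier2 (-0.72, SE 0.28) had a difference that was lower in lung macrophages than in SPMs, where 3.65% of genes were, with an adjusted p of 0.768 and 0.775 in edgeR's quasi-likelihood test, and 6 members did when the 4 groups were fitted alone. Egr1 (-2.17, SE 0.93) was lower in lung macrophages than in monocytes, where 4.14% of genes were, but missed this level without WT monocyte replicate 2 or 4, without ACKR2-/- monocyte replicate 1 or with the 4 groups fitted alone. Without the libraries labelled WT lung replicates 3 and 5 these differences were -1.1 for Junb, -0.92 for Ier2 and -2.26 for Egr1, and Ier3 (-1.28) joined the first pair at that level.

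Other genes of the response were read from lists chosen with earlier results of these data known. Of 19 further immediate early transcription factors tested, 17 were called higher in WT lung macrophages than in WT monocytes (39.5% of all genes) and 15 than in WT SPMs (39.1% of all genes), among them the nuclear receptor gene Nr4a1 (2689.1 CPM in lung macrophages, 22.8 in monocytes and 4.64 in SPMs, on the scale of levels). Of 28 further feedback, stress and growth arrest genes, 27 were called higher than in monocytes and 28 than in SPMs, beside the same shares of 39.5% and 39.1% over all genes, including Tnfaip3, an inhibitor of NF-kB (log2 difference 4.95 and 6.23), and the phosphatase gene Dusp2 (6.02 and 8.73). Medians were 4.02 and 4.27 against monocytes and 2.04 and 3.81 against SPMs. These 4 counts were again 17, 15, 27 and 28 without the libraries labelled WT replicates 3 and 5.

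Of 19 acute inflammatory genes of the primary response, 18 were called higher in WT lung macrophages than in monocytes and 19 than in SPMs (39.5% and 39.1% of all genes), with medians of 4.32 and 5.62, including Il1b (log2 difference 9.37 and 5.62). Of 12 heat shock genes 9 and 8 were called higher, where the same shares of all genes were, and 0 and 1 lower. There were 18 and 18 acute inflammatory and 10 and 8 heat shock genes called higher without the libraries labelled WT replicates 3 and 5. Of 25 kinases and factors that act upstream, 4 were called higher and 5 lower than in monocytes, the latter including the kinase gene Rps6ka1 (-1.22) and the CREB family gene Atf1 (-0.77), and 12 were called higher and 2 lower than in SPMs, with medians of 0.17 and 0.79. Over all genes 39.5% were called higher and 24.4% lower than in monocytes, and 39.1% and 23.2% than in SPMs, and the 4 counts of upstream genes were equal without the libraries labelled WT replicates 3 and 5. Between WT SPMs and WT monocytes 11 of the 25 were called lower and 3 higher, where 20.1% and 21.8% of all genes were, with Rps6ka1 at -2.47 and the p38 activating kinase gene Map2k3 at -1.86.

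Between genotypes 1 gene of these lists was called, the antiproliferative p53 target Btg2 in SPMs. It was at 50.9 ± 17.4 CPM in WT and 207.6 ± 18.8 CPM in ACKR2-/- SPMs (SD, n = 4; log2 1.94, SE 0.27, adjusted p = 0.0433 in edgeR's quasi-likelihood test), with no overlap, and the adjusted p ran from 1.01e-08 to 0.284 over its alternatives and missed the threshold in 7 of 8 leave-outs. In monocytes (132.7 ± 47.9 and 101.4 ± 26.8 CPM) and lung macrophages (659.8 ± 125.6 and 543.8 ± 108.6 CPM) Btg2 had lower estimates in ACKR2-/- mice, and neither was called. In lung macrophages 17 of 19 further transcription factors (median -0.13), 24 of 28 feedback and stress genes (-0.25), 18 of 19 acute inflammatory genes (-0.54), 8 of 12 heat shock genes (-0.07) and 12 of 25 upstream genes (0) had lower estimates in ACKR2-/- mice, none of them called, where 55.2% of all genes did. Leaving out the libraries labelled WT replicates 3 and 5, these numbers were 15, 23, 15, 8 and 10, with the median of the acute inflammatory genes at -0.27. In SPMs 14 of 16 acute inflammatory genes (median 0.53) and 16 of 25 feedback and stress genes (0.21) had higher estimates (44.3% of all genes), and in monocytes 19 of 25 feedback and stress genes (-0.23) and 18 of 25 upstream genes (-0.13) had lower ones (49.6% of all genes).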

How the data were processed

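The authors deposited raw read counts per gene in a table for each cell type. HISAT2 2.0.5, featureCounts 1.5.0-p3, DESeq2 and the build mm10 are named in the submitters' processing notes, with no role or order. The lung table carries summary lines in the style of another counting tool, htseq, so which tool made that table is unclear. Poly-A RNA of FACS sorted cells was amplified before sequencing, without molecular identifiers, so floors (3 counts) cover counting error only. The summary lines of the lung table, 56.3% of its counts, were kept out of library sizes and tests, and 0 columns of samples were left unused. Of 44 pairs of replicates, 0 were identical and the smallest chi-square per degree of freedom was 11.7.

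Counts were analysed in R 4.3.3 with edgeR 4.0.16 (filterByExpr with a minimum count of 10 and total of 15, TMM factors, quasi-likelihood test, Benjamini-Hochberg adjustment over all tested genes). Genotypes were compared within each cell type, and cell types and interactions in a joint fit of 26 samples. Genes were called at an adjusted p under 0.05 and, outside interactions, an absolute log2 fold change over 0.5. The scripts were tested on simulated data. Alternatives were DESeq2 1.42.0, its size factors in edgeR, no filter, a filter at 1 CPM, a robust fit, a replicate block, contrasts fitted alone and leaving out each replicate.

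All 10 members were named. From the other lists the genes called, up to 3 per direction and comparison with the smallest p and no overlap, Btg2, Ackr2 and the 5 genes most like the members could be named, and Ppp1r15a, Cxcl2, Dusp2 and others were taken from these, with 1 gene of the lists counted but not reported here. The members and lists were chosen with earlier results of these data known. The list gene Rps6ka4 was not used here.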

Additional observations from a re-analysis of the deposited data

Results flagged for a closer look

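In 60 sets of a gene and a group, 6 had a sample that stood far from the others of its group by Dixon's test, where chance gives about 1 in 20. All 6 were the highest sample of the group and came from 3 libraries. The test was run on CPM without a log, on which high samples stand out more readily than low ones. The 60 sets share libraries and are not independent, so the rate of 1 in 20 is only a rough guide. In WT monocyte replicate 3, Fosb was at 9.68 CPM against 1.52 to 2.17 in the other 3 samples, and Ier3 at 13.5 CPM against 6.76 to 7.85. In ACKR2-/- monocyte replicate 1, Fosb was at 15.2 CPM against 0.738 to 2.55, and Egr1 at 12.1 CPM against 0.779 to 1.62. In WT SPM replicate 1, Fos was at 56.9 CPM against 35.1 to 38.4, and Jun at 33.8 CPM against 11.7 to 14.9. The same SPM library had the lowest Ier2, Ier3, Dusp1 and Atf3 of its group.

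The genotype difference of Btg2, a gene of the feedback list, differed between cell types by the interaction test. It was higher in SPMs than in monocytes by 2.41 on the log2 scale (SE 0.37, adjusted p = 0.000787) and was -2.3 in lung macrophages relative to SPMs (SE 0.35, adjusted p = 0.00224), both in edgeR's quasi-likelihood test. Without the libraries labelled WT lung replicates 3 and 5 the latter was -2.45 (adjusted p = 0.00193 in the same test). Btg2 was higher in 4 of 4 ACKR2-/- SPM samples than in all WT SPM samples.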

How the results depend on the processing

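The number of members called stayed within 1.5 times under every alternative in all 9 comparisons, being 10 in the 4 with lung macrophages, 0 in the 3 between genotypes, 6 to 8 between SPMs and monocytes of WT and 6 to 9 of ACKR2-/- mice. Of 1080 alternative values of the members' differences between cell types, 1049 kept direction and side of the threshold, 16 lost the call, 8 gained one and 7 turned. Of 494 between genotypes, 462 kept both and 32 turned, all of them uncalled. Over all genes DESeq2 called 494 in monocytes, 33 in SPMs and 20 in lung macrophages between genotypes, against 168, 6 and 0.

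Leaving out 1 library in turn gave ranges across 0 for 12 differences. Between genotypes these were, in monocytes, Fosb -1.3 to 1.47, Jun -0.75 to 0.5, Junb -0.38 to 0.18, Egr1 -0.34 to 2.01, Ier2 -0.15 to 0.13 and Dusp1 -0.99 to 0.6. They were in SPMs Fos -0.02 to 0.32, Jun -0.05 to 0.65 and Egr1 -0.26 to 0.35, and in lung macrophages Fosb -0.29 to 0.17 and Ier3 -0.33 to 0.18. Between WT SPMs and monocytes Junb ran from -0.38 to 0.19. Without the filter on low counts Jun was -0.01 in monocytes and Egr1 0.02 in SPMs, and DESeq2 and its size factors in edgeR both put Junb at 0.03 between WT SPMs and monocytes.

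Library sizes alone and leaving out WT lung replicates 3 and 5 together were chosen after seeing the data. Library sizes alone turned Ier2 in monocytes (0.08), Ier3 (-0.52) and Atf3 (-0.14) between WT SPMs and monocytes, and Junb (-0.62) and Btg2 (-0.23) between ACKR2-/- SPMs and monocytes. It moved the median of all genes between genotypes by 0.12 in monocytes.

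Deviations of same-numbered samples correlated at -0.12 to 0.31 in monocytes, -0.09 to 0.02 in SPMs and -0.08 to 0.64 in lung macrophages. The highest values were those of lung replicate 1 (0.64) and monocyte replicate 2 (0.31). They do not settle whether the numbers mark pairs, which the labels do not state. The main tests left samples unpaired, and the replicate block is given as an alternative. With the replicate block 0 members were called, the members at an unadjusted p under 0.05 numbered 4, 2 and 4, and Fosb (-0.01) and Jun (-0.15) in monocytes and Egr1 (0.09) in SPMs turned.

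Depth limits Fosb in SPMs (2 to 9 reads) and Egr1 in monocytes, and for the turned values the cause was not tested.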
